A study of Mus musculus with 7 samples.

Results

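The 10 genes described here encode receptors of natural killer (NK) cells and the killing machinery that NK cells and cytotoxic T cells share, and they were taken by name from the 25033 genes counted in primary T-cell libraries of ORP4L knock-in (KI) and wild-type (WT) mice. They fall into 4 receptors (Ncr1, Klrb1c, Klrd1 and Klrk1), 5 granule effectors (Gzma, Gzmb, Gzmk, Prf1 and Nkg7) and 1 transcription factor (Eomes). All 10 passed the filter on low counts. In the ORP4L KI libraries Ncr1, Klrb1c and Gzma were lower and Gzmk was higher than in WT beyond the spread between mice, Klrd1 was lower by a smaller factor, Nkg7 and Eomes lay above WT on some scales only, Klrk1 and Gzmb overlapped between the groups on all 4 scales used, and Prf1 on all but 1.

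Cytotoxic lymphocytes kill a target cell by releasing granules that hold perforin, a protein that forms pores, and granzymes, serine proteases that enter the target and start its death. NK cells read a target through germline-encoded receptors, many of them lectin-like proteins of the NK gene complex, and need no rearranged antigen receptor, whereas cytotoxic T cells use the T-cell receptor and share the granule proteins with NK cells. In mouse spleen and blood the receptor NKp46, encoded by Ncr1, is largely restricted to NK cells, while the granzymes, perforin and Nkg7 are made by NK cells, CD8+ T cells and some activated CD4+ T cells.

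RNA was sequenced from 3 WT and 4 ORP4L KI mice, 1 library per mouse, all of the C57BL/6J strain and 15 months of age. ORP4L KI mice carry the human ORP4L coding sequence at the Rosa26 locus behind a stop cassette flanked by loxP sites, which a Cre driven by the Lck promoter of the T lineage removes. The KI mice were sampled in a moribund state, and the WT mice were their littermates at the same age, so that genotype and disease state cannot be told apart. The study's methods describe T-cells from blood or spleen, a kit for naive CD4+ T cells, and culture with IL-2 and PHA, without naming which of these applied to the sequenced cells.

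Libraries held 12918187 to 15912921 counts in WT and 16757959 to 19665679 in ORP4L KI. The genotype was checked by Osbp2, the mouse counterpart of the transgene. It had 0, 0 and 1 reads in the WT libraries and 188, 742, 155 and 443 in those of ORP4L KI. The mean KI level of 22.1 CPM was at least 105-fold higher than 3 counts per WT library allow (edgeR adjusted p = 0.0471). Single KI libraries ran from 8.90 to 40.6 CPM. Reads of the human transgene and of mouse Osbp2 are not separated in the counts. Cd8a and Cd8b1 RNA was present in all 7 libraries, at group means of 51.8 and 52.2 RPKM for Cd8a in WT and ORP4L KI, beside 109 and 82.2 RPKM for Cd4. Xist was at 327 CPM or more in 1 WT library (replicate 1) and 2 KI libraries (replicates 1 and 2), so both groups held both sexes. Libraries also differed in the RNA of other cells. The summed level of 14 granulocyte markers was 0.186% to 0.530% of all counts in WT and 1.12% to 12.2% in ORP4L KI, highest in replicate 1 and lowest in replicate 2, and all 14 markers rose. The summed CPM of 8 T-cell genes ran from 1119 to 1729 in WT and was 858, 2496, 1616 and 1684 in ORP4L KI replicates 1 to 4, and none of the 8 passed the test. Among the KI libraries, replicate 2 was the highest in 8 of the 10 genes described here and replicate 1 the lowest in 6 of them. The part of these differences in the results was not tested, and in bulk RNA fewer cells of a type cannot be told apart from less RNA per cell.

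The promoters of the 4 genes that passed the study's lines for p and fold change are shown because 3 of these genes were lower and 1 was higher. Each is the 250 bases before the annotated start in RefSeq (GRCm38.p6), written 5′ to 3′ along the gene's strand, with capitals marking matches on either strand to the RUNX core TGTGGT, the T-box motif GGTGTGA or the AP-1 motif TGANTCA. Eomes binds T-box sites, RUNX factors act in NK and CD8+ T cells, and AP-1 follows T-cell activation.
Ncr1, chr7:4337465-4337714, plus strand, lower in ORP4L KI: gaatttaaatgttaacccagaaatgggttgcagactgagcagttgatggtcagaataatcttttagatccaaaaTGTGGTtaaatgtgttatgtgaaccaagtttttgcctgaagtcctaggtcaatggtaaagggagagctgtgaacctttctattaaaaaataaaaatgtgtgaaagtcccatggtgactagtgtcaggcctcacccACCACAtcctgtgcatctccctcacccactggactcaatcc
Klrb1c, chr6:128788642-128788891, minus strand, lower: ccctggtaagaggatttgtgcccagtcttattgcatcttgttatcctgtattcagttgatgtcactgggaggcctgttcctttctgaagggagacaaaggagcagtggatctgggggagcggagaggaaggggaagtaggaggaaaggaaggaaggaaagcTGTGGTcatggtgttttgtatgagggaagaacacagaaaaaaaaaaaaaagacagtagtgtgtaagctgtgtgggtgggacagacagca
Gzma, chr13:113100982-113101231, minus strand, lower: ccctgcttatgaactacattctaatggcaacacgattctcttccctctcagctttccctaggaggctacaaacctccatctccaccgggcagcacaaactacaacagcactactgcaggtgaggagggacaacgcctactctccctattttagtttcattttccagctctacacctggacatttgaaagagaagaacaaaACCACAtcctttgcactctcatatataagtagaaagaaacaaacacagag
Gzmk, chr13:113180966-113181215, minus strand, higher: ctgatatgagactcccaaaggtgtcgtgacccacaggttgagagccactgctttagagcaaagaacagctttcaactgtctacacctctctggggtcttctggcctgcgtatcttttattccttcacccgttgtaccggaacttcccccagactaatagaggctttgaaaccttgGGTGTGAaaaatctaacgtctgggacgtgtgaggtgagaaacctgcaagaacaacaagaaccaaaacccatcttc

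The capitals in Ncr1 begin at positions -176 and -41 from the start, in Klrb1c at -89 and in Gzma at -50, and all are the RUNX letters. Gzmk had no RUNX match in this window and 1 T-box match, at -75. Of the 9 members with a promoter in the table, 7 held the RUNX letters (Ncr1, Klrb1c, Klrk1, Gzma, Gzmb, Prf1 and Nkg7), against 14% of all 32851 promoters of that length. T-box letters stood in Gzmk and Nkg7 (3.33% of all promoters) and AP-1 letters in Gzmb (6.75%). Klrd1 had no entry. A match is a string of letters and no measured binding, and the 7 genes with RUNX letters included genes that were lower, higher and overlapping between the groups.

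Gzma and Gzmk are neighbours in the same orientation. Gzma spans chr13:113093824-113100981 and Gzmk chr13:113171630-113180965, both on the minus strand, with 70.65 kb between them. Klrb1c, Klrd1 and Klrk1 lie in the NK gene complex, Klrb1c at chr6:128778485-128788641 on the minus strand, Klrd1 at chr6:129588092-129598775 on the plus strand and Klrk1 at chr6:129610323-129623903 on the minus strand, the last pair 11.55 kb apart. Ncr1 lies at chr7:4337715-4345184 and Nkg7 at chr7:43437138-43438246, both on the plus strand.

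In the following, levels are TMM-scaled CPM, a gene's count relative to the scaled total of its library. A gene is said to rise or fall where it was past both lines of the study's volcano plot, a log2 fold change beyond 1 in size and an unadjusted p under 0.01, here from edgeR's quasi-likelihood test. By that rule 4 of the 10 members moved, 1 higher and 3 lower, against 4.68% of all 13462 genes tested (2.38% higher and 2.3% lower). After adjustment over the whole table none of the members stayed under 0.05 in this test, which called 0.0223% of genes. At an unadjusted p under 0.05 the count was 7 members against 13.7% of genes, and at an adjusted p under 0.05 it was 6 with DESeq2's Wald test (5.82% of genes) and 6 with edgeR's likelihood ratio test (5.24%). Both lines were passed by 5 members in each of those tests, against 6.35% and 6.46% of genes.

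**Figure D1:**
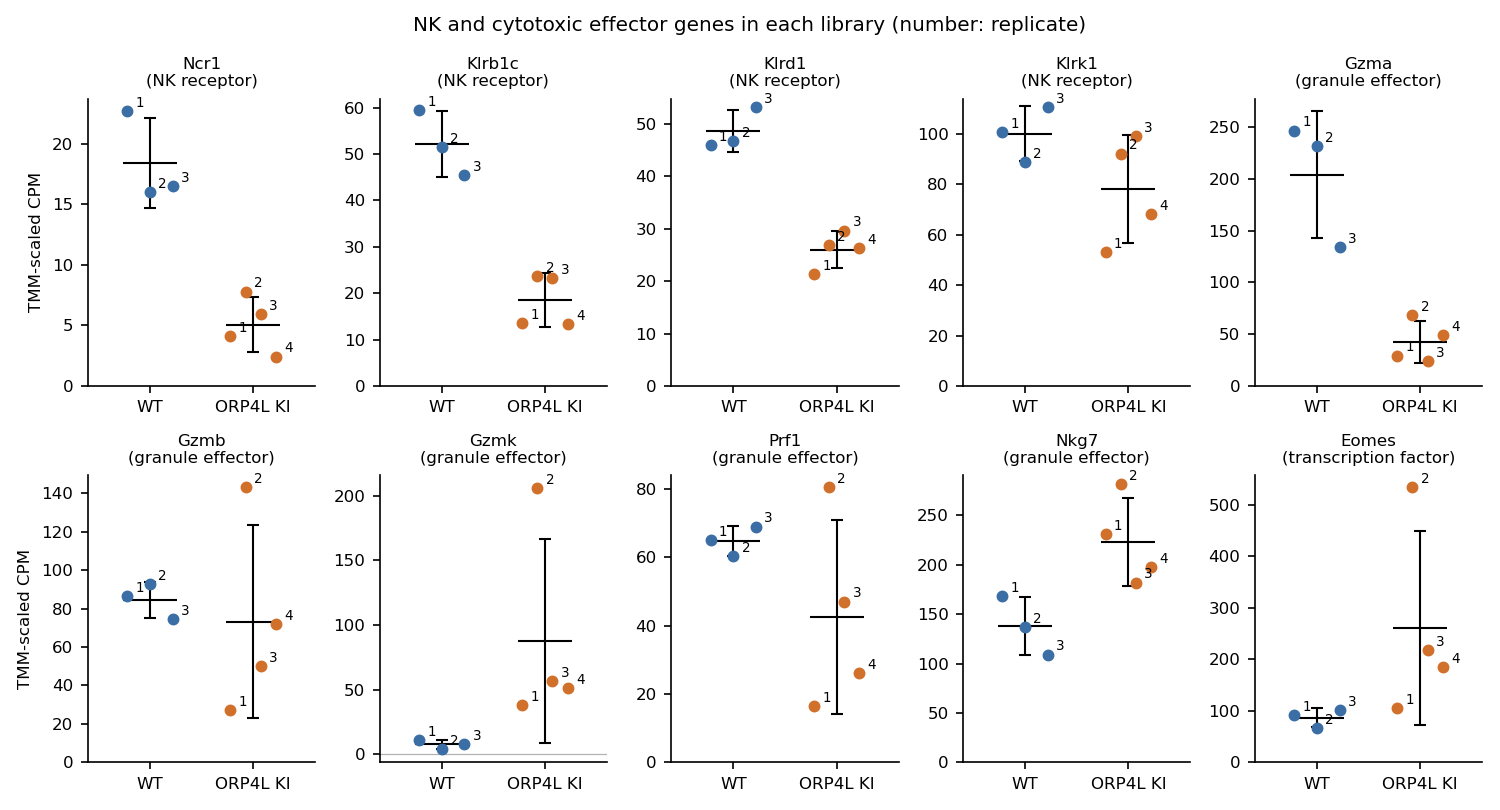
TMM-scaled CPM of each of the 10 genes in every library, with the group in columns, the replicate number beside each point, and the group mean ± SD as a line with bars (3 WT, 4 ORP4L KI). All KI points lie below all WT points for Ncr1, Klrb1c, Klrd1 and Gzma and above them for Gzmk, Nkg7 and Eomes, and replicate 2 stands high in Gzmk (205.6 CPM) and Eomes (533.7 CPM).

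Ncr1, the activating receptor NKp46, was the receptor with the largest difference. It stood at 22.7, 15.97 and 16.5 CPM in WT replicates 1 to 3 and at 4.14, 7.78, 5.92 and 2.43 CPM in ORP4L KI replicates 1 to 4. The highest KI library held less than the lowest WT library. The mean fell from 18.4 ± 3.72 (SD, n = 3) to 5.06 ± 2.30 CPM (SD, n = 4), 3.62-fold, a log2 fold change of -1.86 (SE 0.37, edgeR adjusted p = 0.0686), and it remained between -2.15 and -1.63 when any 1 library was left out.

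Klrb1c encodes the receptor that carries the NK1.1 epitope in C57BL/6 mice, found on NK cells and on NKT cells. Its levels were 59.6, 51.5 and 45.4 CPM in WT and 13.5, 23.7, 23.3 and 13.3 CPM in ORP4L KI, again with no overlap. The log2 fold change was -1.50 (SE 0.26, edgeR adjusted p = 0.0603), a 2.83-fold lower level. Of the 50-base words of its longest transcript, 18.1% also occurred in other annotated genes, among them Klrb1a and Klrb1b, so part of its count could come from those relatives, while Ncr1, Klrd1 and Klrk1 shared none.

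Klrd1 is CD94, the common partner chain of the NKG2 receptors on NK cells and on some CD8+ T cells. It was at 45.9, 46.7 and 53.2 CPM in WT and at 21.3, 26.8, 29.6 and 26.3 CPM in ORP4L KI. These groups did not overlap either, and both were tight, with SDs of 3.99 and 3.47 CPM. Its log2 fold change of -0.90 (SE 0.18, edgeR adjusted p = 0.0686) was under the size line, so it is not counted among the genes that fell. By total counts alone it was -1.04 and past both lines.

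Klrk1 is NKG2D, an activating receptor of NK cells that CD8+ T cells also carry. Values were 100.9, 88.7 and 110.6 CPM in WT and 53.1, 92.2, 99.1 and 68.2 CPM in ORP4L KI. KI replicates 2 and 3 lay inside the WT range and replicates 1 and 4 below it. The log2 fold change was -0.36 (SE 0.24, edgeR adjusted p = 0.599). Relative to Ncr1 in the same library, Klrk1 had a ratio of RPKM of 2.04, 2.54 and 3.07 in WT and of 5.87, 5.43, 7.66 and 12.9 in ORP4L KI, so the KI libraries held more NKG2D RNA per NKp46 RNA than any WT library. This ratio, like the others given below, was chosen after the values were seen and has no test.

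Gzma, granzyme A, had the largest decrease of the 10 genes. Its values were 246.9, 231.6 and 134.2 CPM in WT and 29.3, 68.5, 23.8 and 49.5 CPM in ORP4L KI. Each KI library lay below the lowest WT library. The mean fell from 204.2 ± 61.1 to 42.8 ± 20.4 CPM, 4.77-fold, with a log2 fold change of -2.26 (SE 0.38, edgeR adjusted p = 0.0603) and a range of -2.59 to -2.06 when 1 library was left out.

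Gzmk, granzyme K, a tryptase-like protease known from memory CD8+ T cells, went the other way. It was at 11.2, 3.77 and 7.73 CPM in WT and at 38.2, 205.6, 56.5 and 51.2 CPM in ORP4L KI. All 4 KI libraries exceeded all WT libraries, and replicate 2 held over 3 times the level of any other. The fitted log2 fold change was 3.54 (SE 0.68, edgeR adjusted p = 0.0659), and it was 2.67 without KI replicate 2 and up to 3.94 without WT replicate 1, past both lines each time.

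In TMM CPM neither Gzmb nor Prf1 separated the groups, and both spread widely among the KI mice. Gzmb, granzyme B, which cleaves at aspartate and activates caspases, was at 86.3, 92.8 and 74.5 CPM in WT and at 27.4, 143.2, 50.1 and 72.0 CPM in ORP4L KI, with KI replicate 2 above and the other 3 below the WT range. Its log2 fold change was -0.21 (SE 0.46, edgeR adjusted p = 0.905), and the sign turned without KI replicate 1 (0.06). Prf1, perforin, was at 65.0, 60.2 and 69.0 CPM in WT and at 16.5, 80.6, 47.0 and 26.1 CPM in ORP4L KI, the same order of KI mice as for Gzmb apart from replicates 3 and 4. Its log2 fold change of -0.60 (SE 0.45, edgeR adjusted p = 0.641) became -1.13, past both lines, without KI replicate 2.

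Nkg7, a membrane protein of cytotoxic granules needed for their release, was at 167.8, 137.0 and 109.1 CPM in WT and at 230.8, 281.5, 181.8 and 197.1 CPM in ORP4L KI. The groups did not overlap on this scale, but they did when counts were divided by total counts alone, in RPKM, and when scaled to T-cell genes. The log2 fold change was 0.69 (SE 0.23, edgeR adjusted p = 0.215), which is short of both lines.

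Eomes, a T-box transcription factor of NK cells and memory CD8+ T cells, was at 92.7, 65.9 and 101.3 CPM in WT and at 105.4, 533.7, 218.1 and 184.3 CPM in ORP4L KI. KI replicate 1 was just above the WT range and replicate 2 held 533.7 CPM. The groups overlapped by total counts and in RPKM. With a log2 fold change of 1.59 (SE 0.50, edgeR adjusted p = 0.178) it passed the size line, while its unadjusted p lay just above 0.01. It was past both lines without KI replicate 1 (1.84) and in 7 of the 16 alternatives in all, and it was 0.95 without KI replicate 2. Against Tbx21, the related factor T-bet, which was at 57.4 ± 6.46 CPM in WT and 66.0 ± 25.1 CPM in ORP4L KI, the Eomes RPKM ratio was 0.995, 0.792 and 1.36 in WT and 2.28, 4.05, 2.30 and 1.65 in ORP4L KI.

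**Figure D2:**
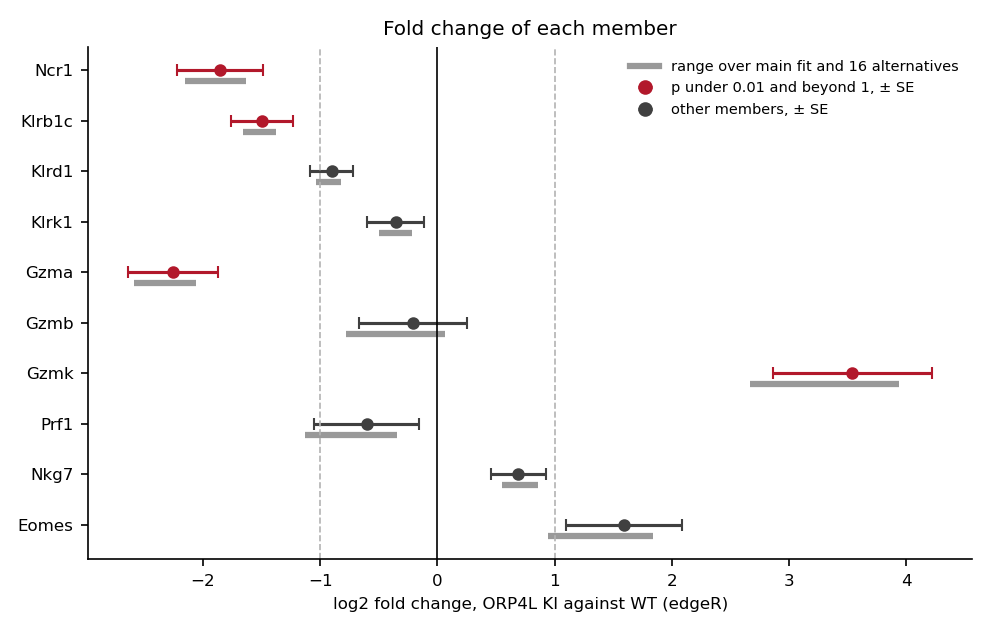
Log2 fold change of ORP4L KI against WT for each gene (points, ± SE from edgeR, red where both lines were passed, dashed lines at -1 and 1), with grey bars for the range over the fit and its 16 alternatives. The bars of Ncr1, Klrb1c, Gzma and Gzmk stay beyond the dashed lines, and those of Gzmb cross 0.

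Over the 10 genes, 7 had groups that did not overlap in TMM CPM, 3 higher and 4 lower, against 13.8% of all genes (6.43% higher and 7.38% lower). By total counts or in RPKM these were 1 higher and 4 lower, and when scaled to T-cell genes 2 higher and 5 lower, with Prf1 then below WT. The share of all genes was taken in TMM CPM only, so the counts on the other scales have no share to compare with. Ncr1, Klrb1c, Klrd1 and Gzma were below WT and Gzmk above it on all 4 scales. With KI replicates 1 and 2 both left out, a fit chosen after seeing the data, the log2 fold changes were -2.13 for Ncr1, -1.51 for Klrb1c, -2.48 for Gzma and 2.83 for Gzmk. Both KI libraries with high Xist are left out of that fit, while WT replicate 1, also high in Xist, is kept. An exact two-sided permutation test used log2(CPM + 0.5) over the 35 ways of drawing 4 libraries of 7. In this permutation test Ncr1, Klrb1c, Klrd1, Gzma, Gzmk and Nkg7 each reached 0.0286, the smallest p this design allows. The share of all genes at this p was not computed, and these members were already among those whose groups did not overlap. The exact permutation p was 0.0571 for Eomes, 0.229 for Klrk1, 0.257 for Prf1 and 0.543 for Gzmb. The median log2 fold change was -1.20 over the 4 receptors and -0.21 over the 5 effectors, beside 0.01 over all genes.

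Per length of transcript, the order of the 10 genes also differed. In WT libraries Gzma (244 ± 69.4 RPKM) and Nkg7 (180 ± 39.0) stood first with overlapping ranges, Klrd1 (59.5) and Gzmb (59.1) followed, and Prf1 (33.5), Klrk1 (33.3), Eomes (24.9) and Klrb1c (21.1) formed a run in which each overlapped its neighbour. Ncr1 (13.4) and Gzmk (7.36) were last, apart from Klrb1c and overlapping each other. In ORP4L KI, Nkg7 was first at 265 ± 75.0 RPKM and did not overlap Gzmk, which came second at 81.3 ± 81.4. Every later neighbour in the KI order overlapped the one after it, from Eomes (71.0), Gzmb (48.7), Gzma (47.7), Klrd1 (29.0), Klrk1 (23.9) and Prf1 (21.0) down to Klrb1c (6.91) and Ncr1 (3.42). By group means, Gzmk was in the last place in WT and in the second in ORP4L KI, and Gzma in the first and in the fifth. Single KI libraries differed from this order. Gzmk was at 203 RPKM in KI replicate 2, and in KI replicate 4 it was at 42.7 RPKM, below Gzma at 51.7 RPKM.

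The mixture of granzymes can be read within a library as each gene's share of the summed RPKM of 10 granzyme genes. Gzma took 77.4%, 77.3% and 70.7% in WT and 31.9%, 20.2%, 18.2% and 30.8% in ORP4L KI. Gzmk took 2.80%, 1.00% and 3.25% in WT and 33.3%, 48.3%, 34.4% and 25.4% in ORP4L KI. Gzmm, granzyme M, which was not chosen as a member, went from 2.61 ± 0.27% to 15.9 ± 7.03%. Gzmb held 18.9 ± 3.62% in WT and 22.6 ± 3.79% in ORP4L KI, with overlapping libraries. Summed granzyme RPKM was 323 ± 78.5 in WT and 206 ± 147 in ORP4L KI, and KI replicate 2, at 420, exceeded all WT libraries while the other 3 lay below them. The ratio of Gzmk to Gzma in RPKM was 0.0361, 0.0130 and 0.0459 in WT and 1.04, 2.39, 1.89 and 0.825 in ORP4L KI. Both genes are counted in the same library, so the ratio does not depend on how libraries are scaled, and it showed no overlap between the groups.

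**Figure D3:**
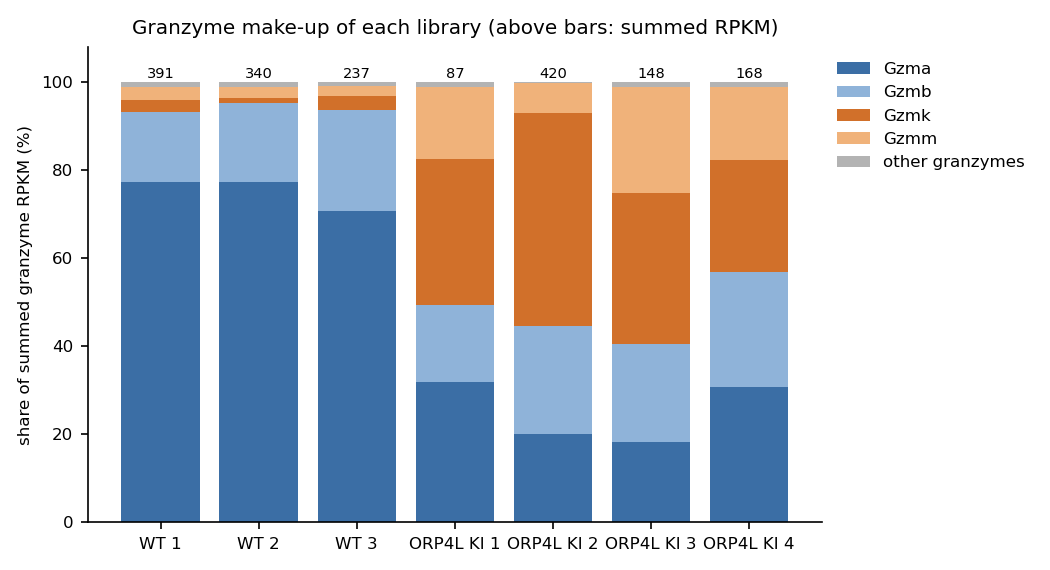
Share of summed granzyme RPKM (%) taken by Gzma, Gzmb, Gzmk, Gzmm and the other 6 granzyme genes in each library, with the summed RPKM above each bar. Gzma holds over 70% of each WT bar and under 32% of each KI bar, and Gzmk holds at most 3.25% in WT and at least 25.4% in ORP4L KI.

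**Figure D4:**
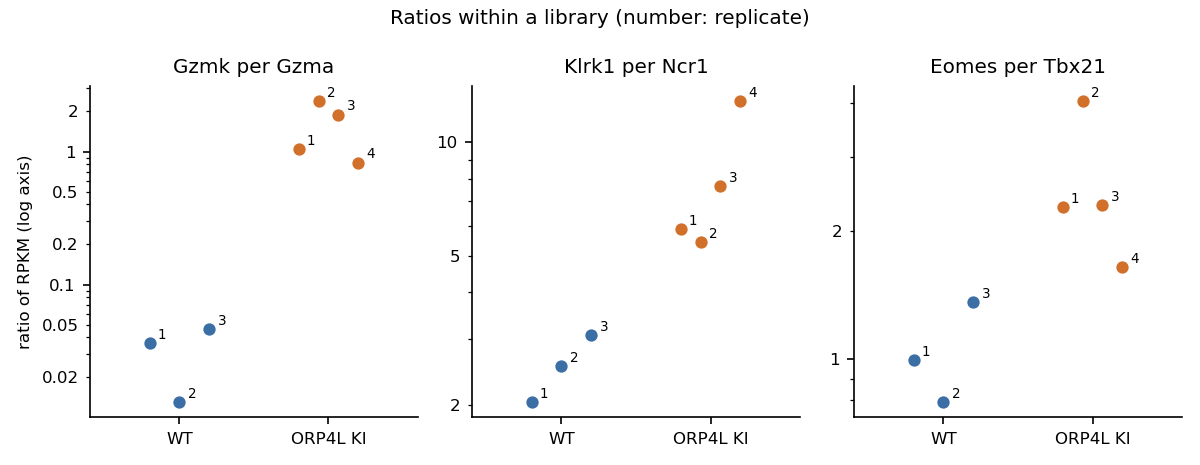
Ratios of RPKM within each library on log axes, for Gzmk per Gzma, Klrk1 per Ncr1 and Eomes per Tbx21, with the replicate number beside each point (3 WT, 4 ORP4L KI). In each panel all KI points lie above all WT points, most widely for Gzmk per Gzma.

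Other NK receptors were described from a list of 27 tested genes, most of them lectin-like receptors of the NK gene complex. Of these, 9 fell and none rose, 22 had a negative fold change, and the median log2 fold change was -0.77 beside 0.01 over all genes. The count past both lines was 5 without WT replicate 1, 5 with a replicate block (which also leaves out KI replicate 4; 6 without that library alone) and 12 without KI replicate 2. Over all genes tested, calls in either direction were 630 in the main fit and 438 without WT replicate 1. They were 466 with the replicate block, 442 without KI replicate 4 and 805 without KI replicate 2. The 4 that fell by most were Klri1 (-1.79, SE 0.56), Klra4 (-1.76, SE 0.31), Klra8 (-1.67, SE 0.24) and Klri2 (-1.66, SE 0.27). Klra4 and Klra8 encode the activating Ly49 receptors Ly49D and Ly49H, the latter a receptor for a cytomegalovirus protein, and Klri1 and Klri2 encode partners of Klre1. Klra8 was at 63.9 ± 1.68 CPM in WT and 20.04 ± 5.78 CPM in ORP4L KI, and Klra4 at 36.7 ± 4.21 and 10.8 ± 4.07 CPM. The other 5 that fell, named after their values were seen, were Klrc2, Klrb1b, Klra9, Klrb1a and Klre1. Klri1 was past the p line by little and lost the call in 8 of the 15 alternatives that gave it a value, among them those without WT replicate 1 (-1.80), 2 (-1.60) or 3 (-1.95), KI replicate 1 (-1.52) or KI replicate 4 (-1.53). Klrb1a (-1.24, SE 0.31) lost its call in 4 of the 16 alternatives, those without WT replicate 1 (-1.21) or 2 (-1.24), the scaling to T-cell genes and the replicate block. The Klra genes are close paralogs, and how reads shared between them were counted is not given in the sources used here, so single Klra values are uncertain. The summed CPM of the 27 genes was 678 to 715 in WT and 401 to 525 in ORP4L KI. Over the same libraries the dendritic cell markers, of which 7 of 8 fell, went from 515 to 774 CPM in WT to 147 to 272 in ORP4L KI, the granulocyte markers rose as given above, 1 of 12 monocyte and macrophage markers rose and 2 fell, none of 10 B-cell markers moved, and 1 of 6 basophil and mast cell markers rose. None of 8 erythroid markers passed the lines, while their sum was 9809 to 18520 CPM in WT and 1070 to 8542 in ORP4L KI. None of the listed markers of these other cell types was at 0 in all libraries, and their part in the receptor values was not tested.

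Of 6 signalling adaptors of these receptors, some of them shared with myeloid cells, 0 moved (median 0.19). The 2 with the smallest p were Hcst, which encodes DAP10, the adaptor of NKG2D (0.63, SE 0.31, edgeR adjusted p = 0.414), and Sh2d1b1, which encodes EAT-2 (-0.67, SE 0.41, edgeR adjusted p = 0.547), which was -1.08 and past both lines without KI replicate 1. Among 12 cytokine and chemokine receptors of cytotoxic cells, none moved (median -0.02). Cx3cr1, the fractalkine receptor, was at -0.67 (SE 0.30) and Il15ra at 0.53 (SE 0.24).

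Granule and death ligand genes beyond the members included 15 tested genes, of which 2 rose and none fell (median 0.27). Gzmm rose from 9.12 ± 3.1 to 30.7 ± 8.79 CPM (log2 fold change 1.75, SE 0.33, edgeR adjusted p = 0.0655), in the same direction as Gzmk and opposite to Gzma, and kept its call in all 16 alternatives. Rab27a, a small GTPase that docks lytic granules and also granules of neutrophils, rose from 64.6 ± 3.92 to 139 ± 44.1 CPM (1.11, SE 0.26). That call was lost without WT replicate 2 (1.07) and without KI replicate 1 (0.90), the library with the highest granulocyte sum, and in 4 of the 16 alternatives in all. Of 8 effector cytokines and chemokines, Ccl5, a chemokine of cytotoxic and memory T cells, rose from 345 ± 97.9 to 745 ± 170 CPM (1.11, SE 0.28, edgeR adjusted p = 0.110), and the call was lost in 5 of the 16 alternatives, among them those without WT replicate 2 (1.14), WT replicate 3 (0.91) and KI replicate 2 (0.93).

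Of 11 further transcription factors of cytotoxic lineages, none moved (median 0.13). Zbtb16, which encodes PLZF, a factor of NKT and other innate-like T cells, had -0.62 (SE 0.35) and Zeb2, a factor of terminal NK and CD8+ T-cell maturation, had -0.50 (SE 0.31). Zbtb16 was past both lines without KI replicate 2 (-1.02). Neither of the CD8 genes moved (Cd8a 0.12, SE 0.32, and Cd8b1 0.45, SE 0.41), nor did any of 8 T-cell genes, where the smallest p values were those of Trat1 (-0.77, SE 0.32; -1.05 and past both lines without KI replicate 2) and Cd28 (0.73, SE 0.53).

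**Figure D5:**
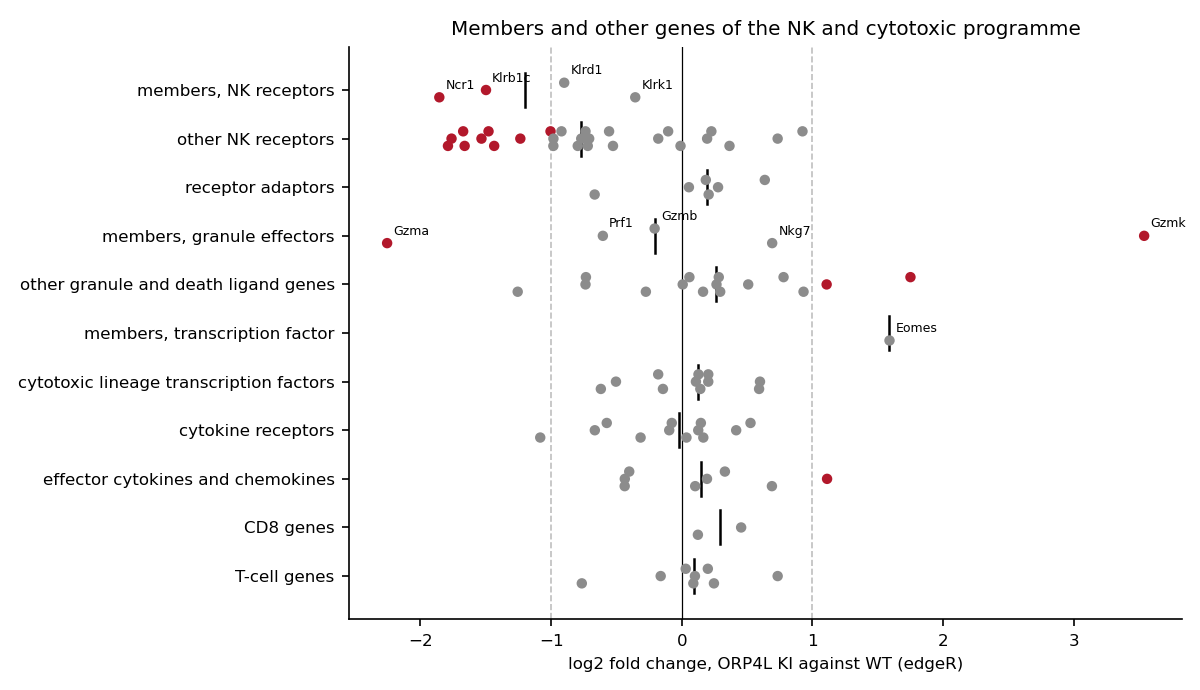
Log2 fold change of ORP4L KI against WT for the members and for each other gene list (points, red where both lines were passed, black bars for the list's median, dashed lines at -1 and 1). The red points of the receptor lists lie on the left, where 9 of 27 other NK receptors fell, and the granule and chemokine lists hold red points on the right for Gzmm, Rab27a and Ccl5.

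The genes whose profile over the 7 libraries came closest to the mean profile of the 4 receptors were sought among 13334 genes by the root mean square difference of centred log2 CPM. Klrb1a, a relative of Klrb1c, came after 2 others at 0.17, behind Ift122 at 0.14, a gene of transport in cilia, and Rtl6 at 0.16, a gene derived from a retrotransposon. Mx2, an interferon-induced GTPase, and Ptchd1 followed, both at 0.19. These 5 genes had low levels, with WT means from 2.14 (Ptchd1) to 8.56 CPM (Mx2). Klrb1a shares 50-base words with Klrb1c, so their profiles may not be independent. The receptors themselves lay at 0.20 (Klrb1c) to 0.42 (Ncr1) from their own mean. The 5 granule effectors lay at 0.36 (Gzmb) to 1.62 (Gzmk) from theirs.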

How the data were processed

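The authors deposited 1 table per library with a read count and an RPKM value per gene. Per the study's methods, RNA was extracted with Trizol, libraries were made with the VAHTS mRNA-seq V3 kit and sequenced on a Illumina NovaSeq, adapters were trimmed, and reads were mapped to mouse mRNA with FANSe3; the labels name mm10. The handling of strand and of reads shared between genes, and the software version, are not given in the sources used here. The RPKM values deposited by the authors are reads scaled by transcript length and library total and served for levels between genes. The counts deposited by the authors served for all tests.

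Groups came from the genotype labels. No test for these data is named in the methods. The fit used edgeR 4.0.16 in R 4.3.3 (filterByExpr, TMM scaling, quasi-likelihood test) on all 13462 genes passing the filter, with Benjamini-Hochberg adjustment over all of them and no covariate, checked on simulated data. With 1 library per mouse, p-values set the difference between the groups against the spread between mice. The 16 alternatives were 3 other scalings (DESeq2 size factors, total counts, T-cell genes), no filter or at least 10 counts in every library, DESeq2 1.42.0 Wald and edgeR likelihood ratio tests, a replicate block, 7 fits without 1 library each, and counts thinned to the smallest library; a fit with KI replicates 3 and 4 alone was added after seeing the data. No pair of libraries agreed within sampling noise. Precision is limited by the counts behind a gene, from 39 (Ncr1, KI replicate 4) to 9743 (Eomes, KI replicate 2) among the members. It is also limited by the spread between mice, as the SE was 0.50 for Eomes and 0.37 for Ncr1.

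The members and the gene lists were chosen with earlier results of these data known. From each list, up to 4 genes past the lines with the largest change were named, or the 2 with the smallest p where none was, with the 5 closest profiles to the receptors and the genes that check the label. The closest profiles to the granule effectors are not reported here. Klrh1 and Zfp683 were not used here, and Cd244 was read as Cd244a. Positions and promoters came from RefSeq (GRCm38.p6), and shared 50-base words from GENCODE transcripts. Figures were drawn with Matplotlib 3.10.9.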

Additional observations from a re-analysis of the deposited data

Results flagged for a closer look

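Gzmk stood far higher in ORP4L KI replicate 2, at 205.6 CPM, than in the nearest other KI library, at 56.5 CPM, in a group that ran from 38.2 to 205.6 CPM. In untransformed CPM the gap was 0.891 of the group's range, above Dixon's 95% critical value for 4 samples. That value holds for normally distributed data, and no such test was run on log CPM. In all, 10 groups of KI values were examined, where chance alone gives about 0.5 such values. The same library had the lowest granulocyte sum of the KI group (1.12% of counts) and the highest T-cell gene sum (2496 CPM). Without it the log2 fold change of Gzmk was 2.67, past both lines.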

How the results depend on the processing

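The calls of Ncr1, Klrb1c, Gzma and Gzmk held in all 16 alternatives, and the number of members past both lines was 4 or 5 in each. The number at an adjusted p under 0.05, 0 in edgeR's quasi-likelihood test (7 at an unadjusted p under 0.05), was 1 with total counts alone, 4 with no filter on low counts, 6 in DESeq2 (Wald), 6 in edgeR (likelihood ratio), 5 for KI replicates 3 and 4 alone and 1 under a replicate block, and it ranged from 0 to 4 when 1 library was left out, the 4 being without KI replicate 2; the cause was not tested. Genes of the other programme lists (27, 6, 15, 11, 12 and 8 tested genes) past both lines were 12, and 8 to 17 when 1 library was left out. The 17 were without KI replicate 2. Calls over all genes also ranged from 328 to 805 in those fits, 805 without KI replicate 2. Other NK receptors past both lines were 5 in place of 9 without WT replicate 1 and 5 with the replicate block, a fit that also leaves out KI replicate 4 (6 without that library alone). Calls over all genes in these fits were 438, 466 and 442, in that order, in place of 630. Over 10 members and 16 alternatives, signs turned once, for Gzmb, which ranged from -0.777 to 0.0622 when 1 library was left out, positive without KI replicate 1. Among the label checks, Cd8a turned to -0.0339 with the replicate block and ranged from -0.0845 (without KI replicate 2) to 0.348 (without KI replicate 1) when 1 library was left out, -0.0061 without WT replicate 2, and Cd3e ranged from -0.0405 (without KI replicate 2) to 0.340 (without KI replicate 1). Total counts alone moved the median of all genes by -0.14, and 40.3% of its calls were higher against 50.8%; relative to that shift no member changed direction. Over all genes, calls past both lines were 630, and 328 when scaled to T-cell genes or without WT replicate 2. Adjusted calls over all genes were 3, against 784 (Wald), 706 (likelihood ratio) and 342 (without KI replicate 2). They were 239 for KI replicates 3 and 4 alone, 176 (no filter), 113 (total counts), 48 (replicate block) and 12 (thinned). Osbp2, Klri1 and Ptchd1 have no value with at least 10 counts in every library.

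Same-numbered WT and KI libraries did not deviate together (correlations of 0.150, -0.535 and -0.002 for replicates 1 to 3), so the numbers gave no sign of pairs of mice. So few correlations cannot exclude pairing, and the WT mice were littermates of the KI mice. With the replicate block over replicates 1 to 3 the members past both lines were 4, and 466 of all genes, beside 4 and 442 in the same 6 libraries without the block. Among the members the lowest count was 39, for Ncr1 in KI replicate 4, and Klri1 held as few as 9.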
